A study of Mus musculus with 78 samples.

Results

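The genes described here are the 10 Notch ligand and Hes/Hey genes of the mouse, 5 ligand genes (Dll1, Dll3, Dll4, Jag1 and Jag2) and 5 effector genes (Hes1, Hes5, Hey1, Hey2 and Heyl), of 21755 protein-coding genes on the autosomes and chromosome X. They were chosen by name and by no rule on measured values, but with earlier results of these data known. The data are 72 ChIP-seq peak lists from C2C12 cells, a mouse skeletal muscle line that fuses into myotubes, collected every 4 h from 12 h to 32 h after a pulse of horse serum that sets the clocks of the cells to a common phase. Each of 4 profiles has 3 replicates at each of 6 time points. Bio-EZH1 is a biotin-tagged EZH1α pulled down with streptavidin from cells in which the endogenous Ezh1 was knocked down, and SUZ12 was, by the labels and the study's methods, precipitated from chromatin of the same modified line. The naming of the SUZ12 lists could also be read as a streptavidin pulldown. The labels were followed, and each SUZ12 value below rests on them. H3K27me3 is the histone mark, called as broad peaks. HA-EZH1 is EZH1 with an HA tag, and the labels of these samples name C2C12 cells and no further modification. The study set 16 h against 24 h as times at which EZH1 is found with different partners, so this pair was compared for every gene.

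Notch ligands sit on the surface of one cell and bind Notch receptors on its neighbour. The receptor is then cut, its inner part enters the nucleus and joins the DNA-binding protein RBPJ, and genes of the Hes and Hey families are switched on, which encode basic helix-loop-helix repressors. In skeletal muscle the pathway is known for holding satellite cells back from differentiation. EZH1 and EZH2 are alternative methyltransferases of Polycomb repressive complex 2 (PRC2), SUZ12 is a core subunit of that complex, and H3K27me3 is the mark it leaves on silenced genes.

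The stretches upstream of the transcription start site (TSS) are shown for the members with a Bio-EZH1 peak in the most and in the fewest libraries of each group, as far as RefSeq promoters (GRCm38.p6) were at hand. Of the 10 members 7 matched, and Hes1, Hey1 and Heyl did not. Among the ligand genes Dll4 stands for 3 genes with a peak in 18 of 18 libraries, chosen for its coverage, and Jag1 is the one with the fewest, 2. Hes5 and Hey2 are the effector genes with a peak in 18. Capitals mark the RBPJ motif, GTGGGAA on either strand. They also mark the N-box, a site of Hes proteins, CACNAG on either strand. The E-box CACGTG was searched as well and was found in none of the matched promoters. Each sequence runs 5′ to 3′ on the gene's strand and stops before the first transcribed base of either annotation.
Dll4, chr2:119325534-119325783, plus strand: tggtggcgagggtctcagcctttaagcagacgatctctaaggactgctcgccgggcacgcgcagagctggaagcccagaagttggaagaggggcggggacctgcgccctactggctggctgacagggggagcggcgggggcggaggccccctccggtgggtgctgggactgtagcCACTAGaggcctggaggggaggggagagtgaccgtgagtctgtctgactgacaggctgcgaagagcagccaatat
Jag1, chr2:137116645-137116770, minus strand: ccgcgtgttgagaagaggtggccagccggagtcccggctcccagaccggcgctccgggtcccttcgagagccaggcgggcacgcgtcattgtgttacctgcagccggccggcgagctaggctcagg
Hes5, chr4:154960673-154960922, plus strand: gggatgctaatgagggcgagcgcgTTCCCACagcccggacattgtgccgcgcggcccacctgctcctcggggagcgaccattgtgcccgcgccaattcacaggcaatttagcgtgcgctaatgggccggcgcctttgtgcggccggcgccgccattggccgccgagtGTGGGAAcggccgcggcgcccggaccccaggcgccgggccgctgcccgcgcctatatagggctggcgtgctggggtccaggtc
Hey2, chr10:30842802-30843033, minus strand: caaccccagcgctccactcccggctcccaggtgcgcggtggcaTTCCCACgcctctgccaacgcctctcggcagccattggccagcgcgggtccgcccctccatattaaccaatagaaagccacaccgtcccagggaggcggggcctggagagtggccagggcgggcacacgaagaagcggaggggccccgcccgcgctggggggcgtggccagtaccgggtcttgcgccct

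Hes5 and Hey2 each hold a pair of RBPJ motifs on opposite strands, pointing away from each other. In Hes5 they begin 226 and 83 bases upstream of the RefSeq start, and in Hey2 207 and 4 bases upstream, the latter within the bases left out above. A motif on both strands was found in 33 of 32851 promoters of 300 bases (0.1%), and a motif on either strand in 6.38%. None of the 5 matched ligand genes held one. The N-box of Dll4 lies 75 bases upstream, and a second N-box lies inside the transcribed bases of 1 of the 2 Dll1 promoters, but the motif is common, in 42.5% of all promoters (E-box, 7.15%). The promoters were also rich in CpG. Jag2 held 63 CpG in its 300 bases, Hes5 41, Hey2 29, Jag1 22, Dll4 17 and Dll3 11, and the 2 Dll1 promoters held 24 and 15, against a median of 7 over all promoters. Bio-EZH1 did not follow these counts, since Dll4 with 17 CpG was covered more than Jag2 with 63.

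The 10 genes fell into 4 states (heat map of all lists). A call of binding at a time point asked that the peaks of all 3 replicates, each with a q-value below 0.01, have at least 1 base in common in the 3 kb on either side of the TSS. Bio-EZH1 bound 7 members at 1 or more time points, Dll1, Dll3, Dll4, Jag2, Hes5, Hey1 and Hey2, where it bound 12% of protein-coding genes, and 4 at all 6 time points (Dll3, Dll4, Jag2 and Hes5; 6.95% of genes). SUZ12 bound the same 7 (14.5% of genes), of which Dll4 and Hes5 at all 6 time points (4.48%). H3K27me3 was found at Dll1, Dll3, Dll4, Hes5, Hey1 and Hey2 (24.2%), at all 6 time points in 5 of them (9.95%), all but Dll1. HA-EZH1 bound Hes5 only (9.85% of genes), and none at all 6 time points (0.147%). By ligand and effector genes the numbers were 4 against 3 for Bio-EZH1 as for SUZ12, 3 against 3 for H3K27me3 and 0 against 1 for HA-EZH1. The 5 members Dll1, Dll3, Dll4, Hes5 and Hey2, had Bio-EZH1, SUZ12 and H3K27me3 at the same time point (8.66% of genes). Jag2 alone had Bio-EZH1 and SUZ12 and no H3K27me3 (1.02% of genes), and Jag1, Hes1 and Heyl were bound by none of the 4 profiles. In bulk chromatin a peak held by few cells and a weak peak in all cells cannot be told apart. Peaks counted over the whole gene gave the same numbers of members, 7, 7, 6 and 1, against 14.1%, 18.2%, 26.2% and 12.6% of genes.

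**Figure D1:**
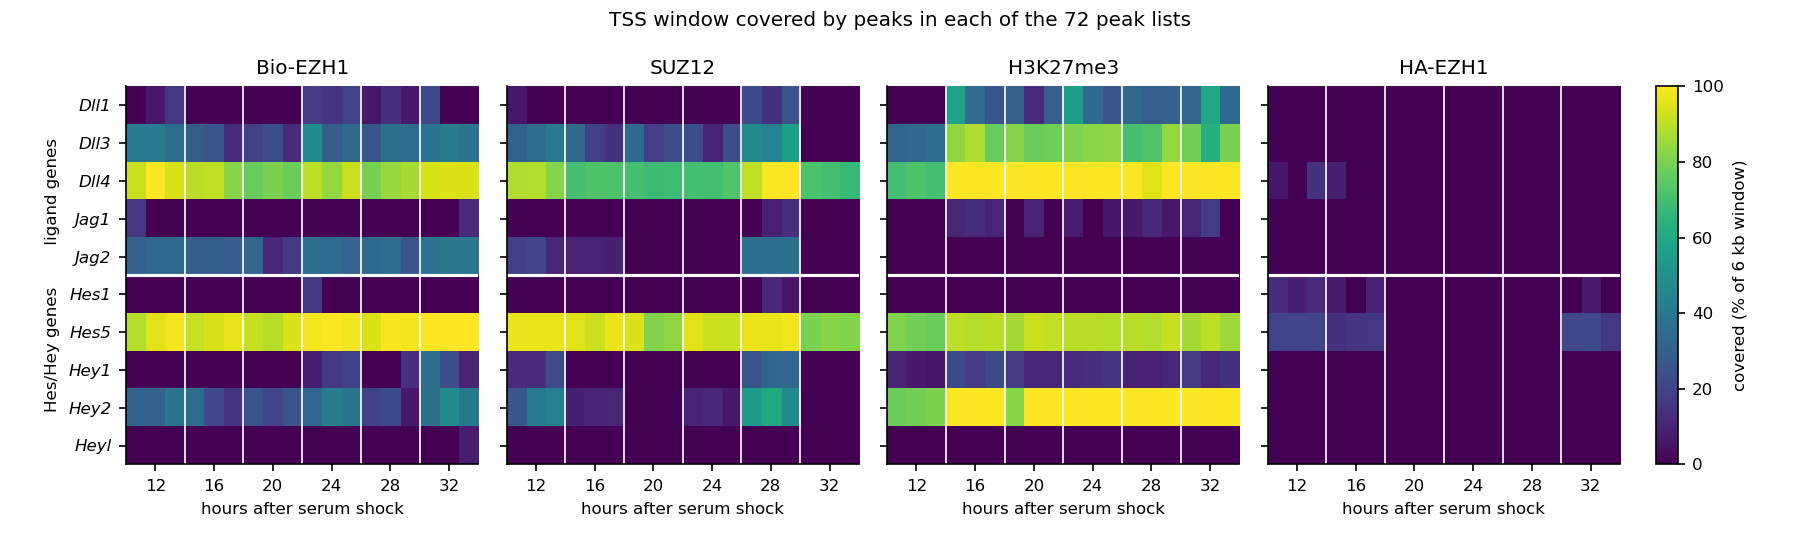
Percent of the 6 kb window around the TSS that is covered by peaks, for the 10 genes (rows) in the 72 peak lists (columns, 3 replicates side by side at each time point). Dll4 and Hes5 were covered by 67.4% or more in all lists of Bio-EZH1, SUZ12 and H3K27me3, Jag2 was covered by Bio-EZH1 and SUZ12 but not by H3K27me3, and Heyl was covered in 1 list.

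The lists themselves differ between time points, and this bears on each comparison over time. Read depth is not part of a peak list and is unknown, so errors are the spread between replicates. Bio-EZH1 lists held 15046 to 19827 peaks at 24 h and 32 h and 8539 to 13990 at the other times. SUZ12 lists of 28 h held 31246 to 31494 peaks, 13% to 14.2% of them within 3 kb of a protein-coding TSS, and covered 50.9 to 55.3 Mb. At 32 h they held 21419 to 29941 peaks (7.68% to 9.97%, 23.1 to 38 Mb) and at 20 h 21487 to 24640 (10.5% to 11.1%, 33.8 to 43.1 Mb). Those of 16 h and 24 h held 33403 to 40379 peaks (8% to 8.97%) and those of 12 h 25961 to 32279 (11.4% to 13.6%). H3K27me3 lists held 63750 to 70796 peaks at 12 h and 45120 to 50366 later. HA-EZH1 lists stood apart at 20 h and 24 h, with 9124 to 16365 peaks of which 2.33% to 3.56% lay within 3 kb of a protein-coding TSS, where the lists of the other 4 times held 2347 to 5234 peaks and 24.4% to 70.5% of them near a TSS. Of 10 genes of other lineages silenced in muscle, Pax6 and Gata4 among them, 10 were bound at all 6 time points. This held for Bio-EZH1, SUZ12 and H3K27me3 alike, while HA-EZH1 bound 5 at 1 or more time points. Of 10 muscle genes H3K27me3 was found at 2, Acta1 and Ckm. Bio-EZH1 and SUZ12 each bound 3 (Acta1, Ckm and Myl1) and HA-EZH1 bound 1 (Ttn), at 1 or more time points.

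Dll4, a ligand best known from blood vessels, carried the strongest peaks of the group. It is an Ensembl gene (ENSMUSG00000027314.6) on chr2:119325784-119335962, plus strand, in mm10. Bio-EZH1 covered 76.9% to 100% of the 6 kb window in the 18 libraries, with a fold enrichment over the MACS2 background between 25 and 69.5 (median 37), and this peak was stronger than 98.2% or more of the peaks of its own list. The fold was 56.5, 69.5 and 63.9 in the 3 libraries of 32 h and 26.6, 25 and 29.7 at 28 h, so these groups lay far apart. The order was reversed in SUZ12, whose fold was 47.7, 54.6 and 55.2 at 28 h and 7.75, 7.69 and 9.51 at 32 h. The summits of Bio-EZH1 and SUZ12 lay at nearly the same place, at a median of 499 and 491.5 bp downstream of the TSS, most often in an intron. A transcript of the other strand, Gm14207, starts 410 bp from the TSS of Dll4, and a peak cannot be given to one or the other.

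H3K27me3 at Dll4 was thin at 12 h and broad thereafter. At 12 h the peak at the TSS was 4284 to 7678 bp long with a fold of 2.24, 2.53 and 2.46. Replicates 1 and 2 of 12 h had a further peak inside the gene, from 4615 to 6341 and from 4743 to 6389 bp. From 16 h to 32 h the peak at the TSS was 12111 to 14967 bp long in all 15 libraries, with a fold between 8.25 and 9.91. It ran from a median position of -3837 bp to 9580 bp relative to the TSS, which is close to the end of the gene. HA-EZH1 gave weak peaks in 3 of 18 libraries, with folds of 2.24 and 2.79 at 12 h and 1.74 at 16 h, and Dll4 was not called bound.

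**Figure D2:**
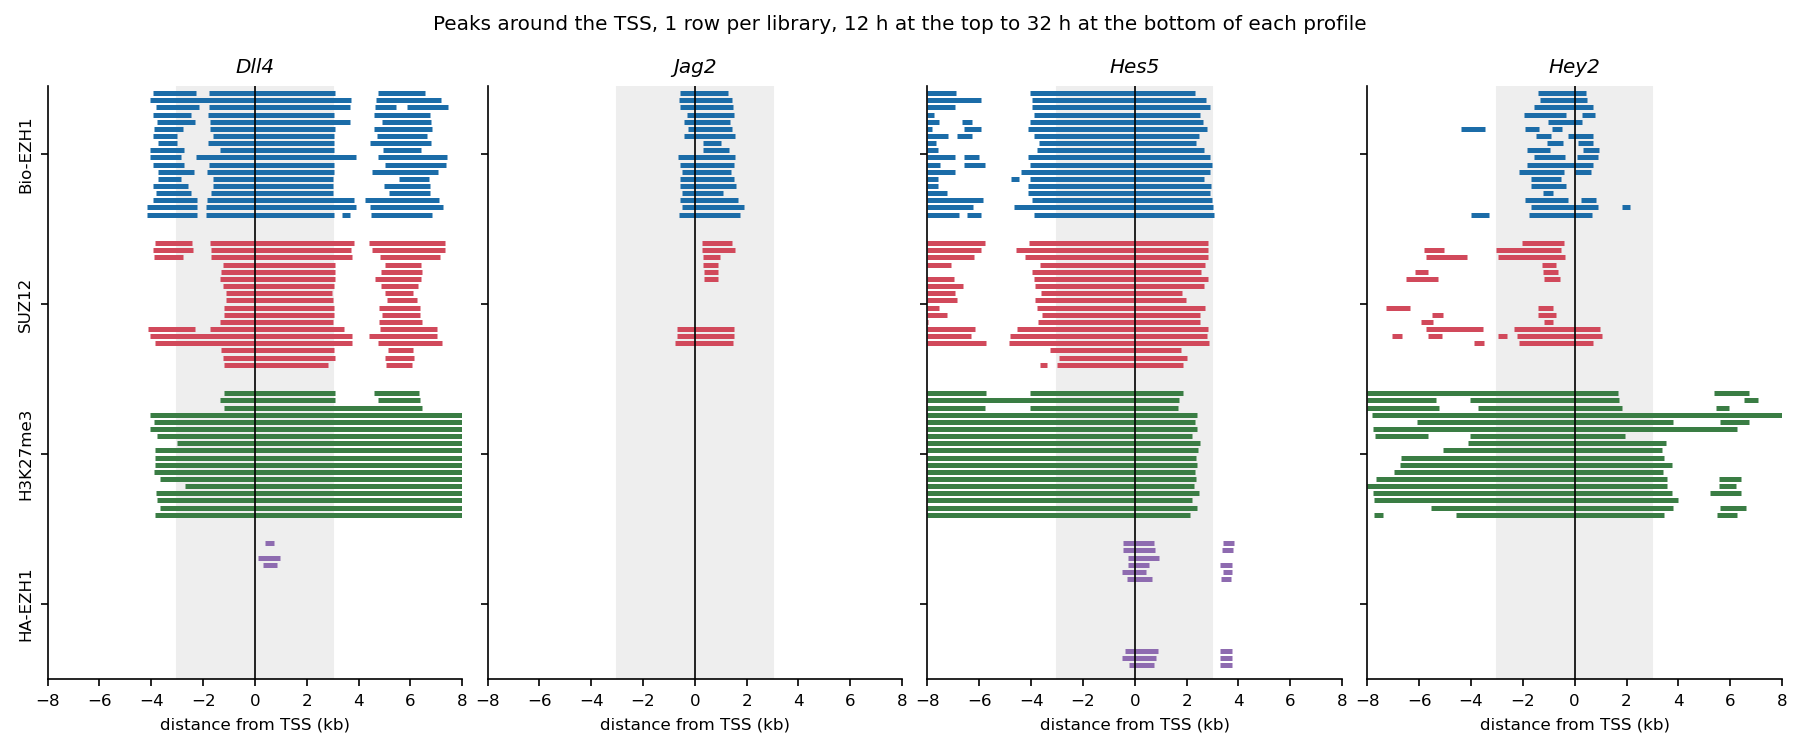
Peaks around the TSS of Dll4, Jag2, Hes5 and Hey2, one row per library, with distance from the TSS in kb along the gene's strand and the 6 kb window in grey; within each profile 12 h is at the top and 32 h at the bottom. H3K27me3 covers 95% to 100% of the window at Dll4 from 16 h on, and Jag2 has no H3K27me3 peak in the range drawn.

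Jag2, a ligand of the Jagged type, was the gene with PRC2 subunits and no mark. It lies on chr12:112907819-112929776, minus strand (ENSMUSG00000002799.6). Bio-EZH1 was found in 18 of 18 libraries with a fold of 4.01 to 12.1 and a coverage of 11.4% to 39.7%, at a median of 644.5 bp downstream of the TSS. The coverage was 36.1%, 34.8% and 31.6% at 24 h and 32.9%, 11.4% and 16.6% at 20 h. SUZ12 was found in 9 of 18 libraries. Its fold was 3.46, 5.09 and 3.8 at 12 h, 2.29, 2.62 and 2.36 at 16 h, and 11, 12.4 and 12.7 at 28 h, and no library of 20 h, 24 h or 32 h had a SUZ12 peak in the window. H3K27me3 had no peak in the window or over the gene in any of 18 libraries, nor had HA-EZH1.

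Dll3, a divergent ligand that does not activate Notch on neighbouring cells, had Bio-EZH1, SUZ12 and H3K27me3 at moderate strength around its TSS. The gene is on chr7:28293553-28302238, minus strand (ENSMUSG00000003436.11). Bio-EZH1 covered 12.5% to 48.8% of its window with a fold of 2.72 to 7.62, centred 745.5 bp into the gene record, most often in a coding exon. SUZ12 fold in the window was 5.9, 7.84 and 6.52 at 28 h, between 1.57 and 3.61 at 12 h to 24 h, and no peak was called in the 3 libraries of 32 h. Outside the window, toward the end of the gene, every Bio-EZH1 library had a further peak (from 5921 to 8137 bp in 12 h replicate 2). Its fold was 3.73 to 11.3. SUZ12 fold there was 14.7, 17.1 and 16.1 at 28 h. The strongest H3K27me3 peak in the window was 1946 to 2171 bp long at 12 h and had a median length of 17980 bp from 16 h on. It then reached a median of 16230 bp downstream, past the end of the gene. Each library of 12 h had a further H3K27me3 peak downstream of the window, from 5765 to 15372, 5631 to 8309 and 4447 to 8879 bp. Peaks thus already covered 56%, 54.2% and 73.8% of the gene at 12 h, and part of the difference in length is that of split and joined peaks.

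Dll1, a ligand expressed by muscle fibres and their progenitors, had a long H3K27me3 domain upstream and, in most libraries, a short peak over its TSS. The gene is on chr17:15367354-15376872, minus strand (ENSMUSG00000014773.13), and a long noncoding RNA of the other strand, A930024N18Rik, starts 1872 bp from its TSS. The upstream domain was present at 12 h too, with folds of 4.18, 3.85 and 3.94, but it ended at -5069, -5378 and -5098 bp. No H3K27me3 peak of 12 h thus touched the window, and in the 15 later libraries the window was covered by 12% to 59.6%. The strongest peak there had a median length of 16384 bp and a median end at -1786 bp, upstream of the TSS. All 15 libraries also had H3K27me3 over the TSS itself, in 12 of them as a second, short peak (from -372 to 629 bp in 16 h replicate 2, for example) and in 3 as the long peak, which then ran 422 to 576 bp into the gene. Bio-EZH1 was found in 9 libraries and in no library of 16 h or 20 h. Its coverage was 17.8%, 15.6% and 20.3% at 24 h and 6.25%, 14% and 6.85% at 28 h, the times at which it was called bound. In the window SUZ12 was called bound at 28 h alone, with folds of 2.86, 2.89 and 2.57. Upstream of the window SUZ12 also had long peaks, such as from -17339 to -7707 bp in 12 h replicate 1. Their folds were 8.92, 7.88 and 9.31 at 12 h, and 16.3 and 12.3 in 16 h replicates 1 and 3. They were 15.5 in 24 h replicate 2, and 8.91 and 6.24 in 28 h replicates 1 and 2. Peaks ending farther upstream were not searched, so the other libraries may hold one too.

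Jag1 (ENSMUSG00000027276.7, chr2:137081456-137116644, minus strand), the other Jagged ligand, was not called bound by any profile. Bio-EZH1 peaks were found in 2 of 18 libraries, 1 of 12 h and 1 of 32 h, and SUZ12 peaks in 2 libraries, both of 28 h. H3K27me3 peaks of 352 to 1057 bp were found in 11 libraries, none of 12 h, with folds of 2.06 to 2.75, and the strongest peak had a q-value under 0.01 in 7 of them.

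Hes5, a repressor that keeps neural progenitors undifferentiated, was the effector gene most covered. It lies on chr4:154960923-154962371, plus strand (ENSMUSG00000048001.7), and its window also takes in the start of Gm20421, a transcript of the other strand, 755 bp away; the window of Pank4, whose TSS is 3200 bp off, overlaps it. Bio-EZH1 covered 88.5% to 100% of the window, with a summit at a median of 201 bp downstream of the TSS. Its fold was 31.1, 28.1 and 25.9 at 24 h and 33.7, 29.8 and 27.2 at 32 h, against 12.9 to 19.7 at the other times, without overlap. SUZ12 fold was 19.2, 22.1 and 19.2 at 12 h and 28.9, 32.8 and 29.9 at 28 h, and between 3 and 7.83 at 16, 20, 24 and 32 h. H3K27me3 fold was 1.79, 1.82 and 1.94 at 12 h and 4.87 to 7.58 later, when the peak ran from a median position of -15887 bp to 2368 bp relative to the TSS. At 12 h H3K27me3 reached nearly as far upstream. It ran from -14225 to 1721 bp without a break in replicate 2. In replicate 1 it was split into peaks from -14100 to -5758 and -4059 to 1843 bp, and in replicate 3 from -14343 to -5782 and -4057 to 1656 bp.

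Hes5 was also the gene of this group that HA-EZH1 bound, at 12, 16 and 32 h. The coverage was 20.3%, 20.6% and 20.2% at 12 h, 13.7%, 14.9% and 15.9% at 16 h and 21.1%, 22% and 16.2% at 32 h, and 0 in all 9 libraries of 20, 24 and 28 h. The summit lay at a median of 190 bp downstream, next to that of Bio-EZH1, and the fold was 2.69 to 4.33. The libraries of 20 h and 24 h are those with few peaks near any TSS, as given above. Those of 28 h held the fewest peaks of the profile, 2347 to 2602. HA-EZH1 bound 1.84% of genes at 28 h, against 6.44% at 12 h, 4.05% at 16 h and 6.16% at 32 h.

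Hey2, a repressor with known roles in heart and vessels, had a wide H3K27me3 domain and weak PRC2 peaks. It lies on chr10:30832359-30842801, minus strand (ENSMUSG00000019789.9). H3K27me3 covered 77.7% to 80.2% of the window at 12 h and 82.3% to 100% later. Bio-EZH1 peaks were found in 18 libraries, upstream of the TSS at a median position of -466.5 bp, but with a fold of 2.24 to 4.64, and Hey2 was called bound at all times but 16 h. SUZ12 coverage was 55.4%, 60.9% and 47.5% at 28 h, 26.7%, 41.3% and 42.9% at 12 h, 6.3% to 11.3% at 16 h and 24 h, and 0 at 20 h and 32 h.

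Hey1, a close relative of Hey2, had short peaks only. The gene lies on chr3:8663359-8667256, minus strand (ENSMUSG00000040289.8). H3K27me3 was found in all 18 libraries, but its peaks were 345 to 1347 bp long with a fold of 1.69 to 2.84, and lay inside the gene. Bio-EZH1 was found in 7 libraries, all 3 of 24 h, 1 of 28 h and all 3 of 32 h, and SUZ12 in the libraries of 12 h and 28 h.

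Hes1, the oscillating repressor that many cell types use as a Notch target, had HA-EZH1 peaks and almost nothing else. It lies on chr16:30064384-30067796, plus strand (ENSMUSG00000022528.8). HA-EZH1 peaks were found in 6 of 18 libraries, with a coverage of 12.6%, 8.6% and 12.8% at 12 h, 7.35%, 0 and 9.05% at 16 h, and 7.15% in 1 library of 32 h. They lay upstream of the TSS, at a median position of -565.5 bp, with folds of 1.92 to 2.52, and failed the call of a bound gene, which asks for a q-value under 0.01 in all 3 replicates. Bio-EZH1 was found in 1 library, of 24 h, SUZ12 in 2 and H3K27me3 in none. Heyl (ENSMUSG00000032744.4, chr4:123233556-123249875, plus strand), a Hey-like repressor that is a Notch target in satellite cells, had a Bio-EZH1 peak in 1 library of 32 h and no peak of the other profiles.

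In the order of median Bio-EZH1 coverage Hes5 (97.4%) and Dll4 (89.8%) stood well above Dll3 (34.8%), Jag2 (33.2%) and Hey2 (30.9%), whose ranges over libraries overlap, and Dll1 (3.12%) and the other 4 genes (0) followed. The ranges of Hes5 and Dll4 overlap too, but their folds over the MACS2 background are in the other order, with medians of 18.3 for Hes5 and 37 for Dll4.

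**Figure D3:**
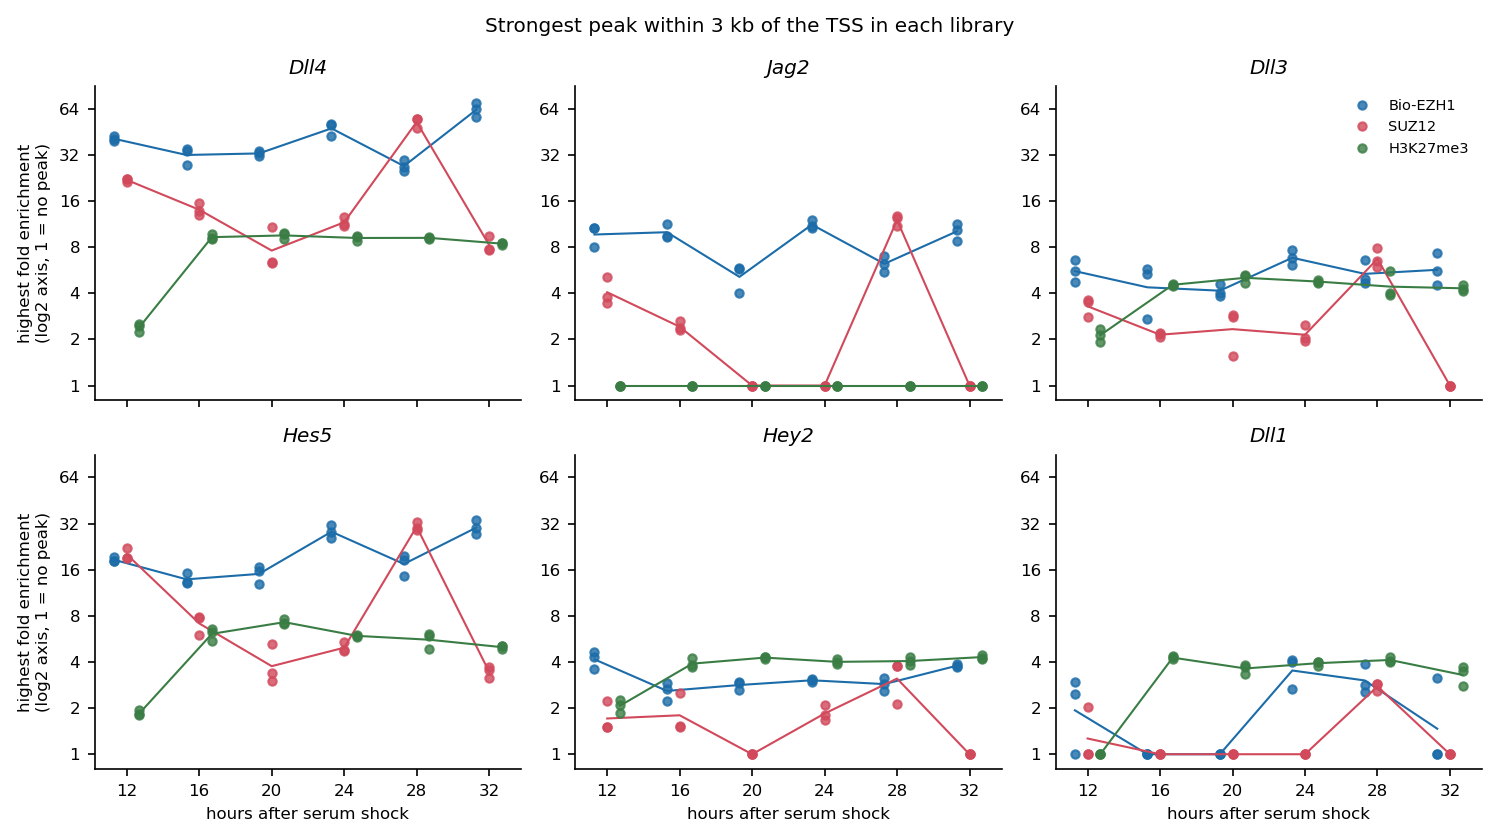
Highest fold enrichment of a peak within 3 kb of the TSS in each library (points, log2 axis, 1 where no peak was called), with lines through the geometric mean of 3 replicates, for 6 genes and 3 profiles. SUZ12 was highest at 28 h in Dll4, where its 3 libraries were between 47.7 and 55.2. H3K27me3 within 3 kb was lowest at 12 h in the 5 genes that carried it. At Dll1 the H3K27me3 points of 12 h are at 1 because the upstream peak ended outside the window.

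Whether coverage changed over the 6 time points was tested with limma's moderated F-test over all protein-coding genes with a peak in 3 or more of the 18 libraries of a profile. This filter keeps a gene that was found at a single time point, which then had to differ, so the counts are given as a description. In Bio-EZH1 6 of 7 tested members passed at an adjusted p of 0.05, where 54.2% of tested genes did. The exception was Dll1 (adjusted p = 0.0568, limma). Among the others were Dll4 (adjusted p = 0.00161), Hey2 (0.00669), Hey1 (0.00741), Dll3 (0.0137), Jag2 (0.0272) and Hes5 (0.039). A permutation test of each gene alone gave p = 0.00057 for Dll4, p = 0.00299 for Hey2 and p = 0.0575 for Dll1. Several of these calls depended on the setting. That of Hey1 was lost with an equal number of peaks (adjusted p = 0.28, limma) and at 1 kb (0.135), that of Dll3 on log2 fold enrichment (0.169), and those of Dll4 and Hes5 at 1 kb (1 for each). Without any 1 of 12 libraries (16 h and 20 h replicates 1 and 2, 28 h replicates 2 and 3, and each of 24 h and 32 h) the adjusted p of Hes5 was 0.0528 to 0.092, and that of Jag2 was 0.0532 to 0.0991 without 20 h or 32 h replicate 2 or 3. Dll1 passed, at 0.00371 to 0.0483, without 12 h replicate 1 or 3 or any library of 32 h. In SUZ12 all 7 tested members passed, in the company of 72.6% of tested genes, with Jag2 the clearest (adjusted p = 2.31e-09, limma; permutation p = 1e-05, the smallest that 100000 permutations can give). In H3K27me3 6 of 7 tested members passed (66.6% of genes), all but Jag1 (adjusted p = 0.113, limma; 0.0109 without 32 h replicate 3). In HA-EZH1 Hes5 and Hes1 passed and Dll4 did not (adjusted p = 0.155, limma; 0.0127 without 12 h replicate 2), where 68.7% of genes passed. With peaks under a q-value of 0.01 alone, Hes1 did not pass (adjusted p = 0.0846, limma). Since most tested genes changed in each profile, these counts single out nothing about the members.

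The time of the extremes was shared with most other genes as well. In SUZ12 the mean coverage was highest at 28 h in all 7 tested members, and so it was in 69.7% of the 2832 genes that changed. For Hes5 the mean coverage was 97.2% at 28 h and 97% at 12 h, within the spread of replicates. In H3K27me3 it was lowest at 12 h in all 6 members that changed, as in 73.1% of 4720 genes. Bio-EZH1 coverage was highest at 32 h in Hes5, Jag2, Hey1 and Hey2, at 24 h in Dll1 and at 12 h in Dll4. In Dll3 it was 39.3% at both 12 h and 32 h. Dll4 was close as well, with 95.3% at 12 h and 94.4% at 32 h, while its mean fold was 40.8 and 63.3. Of 1828 changed genes 50.8% had their highest value at 32 h, 42.5% at 24 h and 4.16% at 12 h. At 28 h SUZ12 bound 7 members and 13.2% of genes, and at 32 h 2 members, Dll4 and Hes5, and 5.59% of genes.

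From 16 h to 24 h Bio-EZH1 coverage rose in Dll1, Dll3, Hey1 and Hey2 and no member fell. Coverage went from 0 in all 3 libraries to 17.9% ± 2.35 (SD, n = 3) in Dll1, a rise of 17.9 points (SE 5.06, adjusted p = 0.0147, limma), and from 0 to 15% in Hey1 (SE 5.23, adjusted p = 0.0374, limma). In Dll3 it rose from 22.8% to 37.5% and in Hey2 from 24.1% to 38.2% (adjusted p = 0.0394 and 0.0456, limma). Hey1 had no Bio-EZH1 peak before 24 h and entered the test through the later libraries, so its p-values for this pair are a description. Of all tested genes 39.2% rose and 0% fell (0 genes by limma, 7 at an unadjusted p under 0.05). The 24 h lists also hold more peaks. With lists thinned to an equal number of peaks 2 members passed, Dll3 and Hey2. The calls also rest on single libraries: without 16 h replicate 2 or 3 only 1 member, Dll1, passed, and without any of the 3 libraries of 24 h 2 did. Hey2 failed without any 1 of 12 libraries. Dll4 and Hes5 were near full coverage at both times, with a rise of 1.39 and 4.75 points that did not pass, but their highest fold rose by 0.58 (SE 0.13, adjusted p = 0.00344) and 1.04 (SE 0.14, adjusted p = 0.000135) on the log2 scale, by limma. On that scale Hey1 rose by 1.47 (adjusted p = 0.000428) and Dll1 by 1.81 (0.00495), while Dll3 (0.64, adjusted p = 0.0742) and Hey2 (0.23, adjusted p = 0.175) did not pass, by limma.

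Between the same times SUZ12 coverage fell at Jag2, from 9.18% to 0 (SE 1.81, adjusted p = 0.0071, limma), and the other 6 tested members did not pass (2.59% of genes rose and 3.72% fell). In H3K27me3 0 of 7 tested members passed (limma; 1.35% of genes rose and 6.89% fell), and 1 had an unadjusted p under 0.05, Hey1, whose coverage was 20.7% at 16 h and 13.7% at 24 h (adjusted p = 0.0613, limma). In HA-EZH1 Hes5 fell from 14.8% to 0 (SE 1.19, adjusted p = 2.3e-07, limma), in a profile in which 29.1% of genes fell and 2.3% rose. Bio-EZH1 and HA-EZH1 were then compared in 1 model. The change at Hes5 differed between the tagged forms by 19.6 points (SE 2.97, adjusted p = 2.07e-06, limma; 3.17e-07 to 1.51e-05 over 39 settings), that at Dll4 by 4.29 points (SE 4.16, adjusted p = 0.349), and 72.2% of the 756 genes tested differed. The cells, the tag, the pulldown and the HA-EZH1 lists of 24 h, with 2.33% to 2.72% of peaks near a TSS, differ together here and cannot be told apart.

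**Figure D4:**
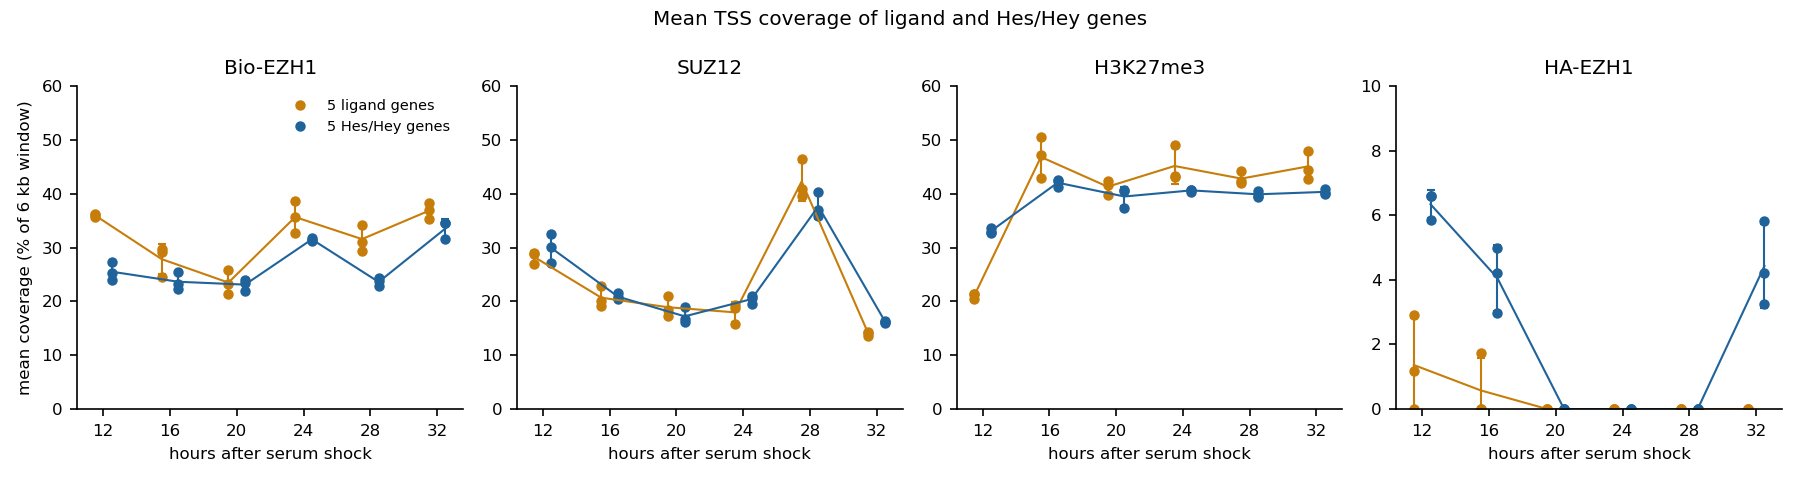
Mean coverage of the 6 kb window over the 5 ligand genes and over the 5 Hes/Hey genes in each library (points), with the mean and SD of 3 replicates at each time point; the axis of HA-EZH1 ends at 10%, the others at 60%. Ligand genes were below Hes/Hey genes in H3K27me3 at 12 h and above them in HA-EZH1 at no time.

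The mean over the 5 ligand genes and that over the 5 effector genes were close, and neither group stood for its members, which ranged from unbound to fully covered. In Bio-EZH1 the ligand genes had a mean coverage of 31.9% ± 5.35 and the effector genes 26.8% ± 4.4 (SD, n = 18 libraries), the ligand genes being higher in 17 of 18 libraries. The difference was 10.5 ± 1.82 points at 12 h and 0.373 ± 2.68 at 20 h (SD, n = 3), and it turned to -0.342 when every transcript start was used and to -2.58 over the gene. In SUZ12 the difference was -0.0498 ± 3.47 points (SD, n = 18), within the spread of libraries. In H3K27me3 it was -12 ± 0.932 at 12 h and between 1.81 and 4.76 later. At 12 h Dll1 had no peak in the window and Dll3 was covered by 34.2%, whereas Hes5 and Hey2 were covered by 77.6% or more. In HA-EZH1 the effector genes were higher at 12, 16 and 32 h, from Hes5 and Hes1, by 3.48 to 4.98 points, and all 10 genes were at 0 at 20, 24 and 28 h.

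Of 52 other genes of the pathway (receptors, modifiers, proteases, nuclear partners and further Hes genes), Bio-EZH1 bound 12 (12% of all protein-coding genes) and SUZ12 13 (14.5%), H3K27me3 was found at 14 (24.2%) and HA-EZH1 at 9 (9.85%). Bio-EZH1 bound 10 of them at all 6 time points (6.95% of all genes): Dlk2, Dtx1, Helt, Hes2, Hes3, Neurl1a, Neurl1b, Nrarp, Rbpjl and Tle4. Helt, Hes2 and Hes3 are relatives of the Hes genes and were covered by Bio-EZH1 by 97%, 70.6% and 65.5% on average. Neurl1a, a ubiquitin ligase for ligands, had no H3K27me3 peak in 18 libraries, as Jag2 had none. Of the receptors Notch4 alone was bound by Bio-EZH1, at 4 time points, and it is named after its values were seen. Over time 11 of 13 tested pathway genes changed in Bio-EZH1 (54.2% of all tested genes), 11 of 13 in SUZ12 (72.6%), 13 of 16 in H3K27me3 (66.6%) and 14 of 21 in HA-EZH1 (68.7%), by limma at an adjusted p of 0.05.

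The genes whose TSS coverage over all 72 libraries was most like the mean of the ligand genes were Rtn4rl2, Mmp17 and Adora1, with Pearson r of 0.973, 0.971 and 0.97. For the effector genes they were Trp53i11, Shisa8 and Mcidas, with r of 0.983, 0.979 and 0.979. These values mostly follow the difference between profiles, which all 72 points share, and are a description.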

How the data were processed

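Peak lists of 72 ChIP-seq libraries from synchronized C2C12 myotubes were used (4 profiles, 6 time points, 3 biological replicates); 6 HA input samples were not used here. The members and lists were chosen with earlier results of these data known. Reads were trimmed, aligned with BWA 0.7.17 to mm10 and to the Drosophila genome of the spike-in, cleared of duplicates with Picard, filtered with SAMtools 1.7 and called per library with MACS2 2.2.4 by the authors. The deposited lists hold a fold enrichment (the ratio of signal to the MACS2 background), p-values and q-values as −log10, and a score of 10 times −log10 q, all made by the authors. A later filter named in the lists was not given in the sources used here, and no spike-in factor is part of them. The largest deposited q-value was 0.05 in narrow lists and 0.1 in broad ones.

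Genes came from GENCODE M21 (GRCm38), the TSS being the 5′ end of the gene record. Coverage is the percent of the window of 3 kb on each side of the TSS that peaks as deposited cover. It was tested with limma 3.58.1 (R 4.3.3; Benjamini-Hochberg over tested genes, threshold 0.05) with time as a factor, and single members with 100000 permutations of the libraries of a profile. On simulated data, 149 of 200 changed genes were recovered in Bio-EZH1, 153 in SUZ12, 113 in H3K27me3 and 160 in HA-EZH1, with a shift of 4 SD. The genes named were all 10 members, the pathway genes bound by Bio-EZH1 at all 6 time points, and the 3 genes most correlated with each group over 100 kb away. Replicates were checked: no pair of lists was identical, and coverage correlated between replicates with r from 0.73 (HA-EZH1) to 0.972 (SUZ12). Mitochondrial peaks, 19 in all, were not used. P-values measure the spread between these samples.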

Additional observations from a re-analysis of the deposited data

Results flagged for a closer look

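The change of Hes5 coverage from 16 h to 24 h differed between the tagged forms of EZH1. In Bio-EZH1 it went from 94.1% to 98.9% and in HA-EZH1 from 14.8% to 0, a difference of 19.6 points (limma interaction, adjusted p = 2.07e-06), with 3 of 3 HA-EZH1 libraries of 24 h at 0. The HA-EZH1 lists of 24 h held 12433 to 15008 peaks, of which 2.33% to 2.72% lay near a TSS, against 4621 to 5234 peaks and 24.4% to 34.8% at 16 h, and the part of this in the difference was not tested.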

How the results depend on the processing

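Of the counts and differences recomputed under other settings, 989 values kept their direction and stayed within 1.5 times or 1 SD, 56 moved further and 3 reversed. With a window of 1 kb on each side of the TSS, where Dll4, Hes5 and Hey2 are often fully covered, the counts over time were 912 genes and 3 members in Bio-EZH1, 4 members in SUZ12, and 3094 genes and 2 members in H3K27me3. From 16 h to 24 h they were 576 genes and 1 member in Bio-EZH1 and 312 genes in H3K27me3. The difference of ligand minus effector genes was then 13.6 points in Bio-EZH1, 6.5 in SUZ12 and -6.43 in HA-EZH1. Over the gene with 3 kb upstream it was -2.58 in Bio-EZH1 and -6.1 in SUZ12, and 2046 Bio-EZH1 genes, 464 SUZ12 genes and 1 H3K27me3 member (Hey2) changed from 16 h to 24 h. With every transcript start the Bio-EZH1 difference was -0.342. For these reversals the cause was not tested.

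An exact test of the presence of a peak, which gives up coverage, called 0 of 3373 genes and 0 members in Bio-EZH1 (363 genes at an unadjusted p under 0.05). It called 997 of 3901 genes and 4 members in SUZ12, 1175 of 7085 and 1 in H3K27me3, and 1699 of 3343 and 1 in HA-EZH1. With all annotated genes tested the counts over time were 4491 in SUZ12 and 9793 in H3K27me3, and from 16 h to 24 h 2042 in Bio-EZH1, 461 in SUZ12 and 1018 in H3K27me3. On log2 fold enrichment 615 SUZ12 and 1263 H3K27me3 genes changed from 16 h to 24 h. Bio-EZH1 members that changed between these times were 2 with an equal number of peaks and 1 with genes found in 1 or more libraries. At q under 0.01 1 HA-EZH1 member changed over time. H3K27me3 bound 1 member at all 6 time points at q under 1e-05. HA-EZH1 bound 2 members, 2 of them effector genes, with peaks as deposited, and 3, 1 ligand and 2 effector genes, in 2 of 3 replicates. Counts of members given here without the share of all genes are a description and single out nothing about the members.

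Leaving out single libraries, HA-EZH1 bound 1 to 3 members (0 to 1 ligand and 1 to 2 effector genes), the highest without 12 h replicate 2. From 16 h to 24 h the counts were 866 to 1326 genes in Bio-EZH1, the lowest without 24 h replicate 1, 1 to 4 members in Bio-EZH1, 0 to 1 in H3K27me3 (Hey1, without 16 h replicate 2, 20 h replicate 1 or 32 h replicate 1 or 2) and 1 to 2 in HA-EZH1 (Hes1, without 16 h or 32 h replicate 2).

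Within a profile, libraries with the same replicate number did not deviate together on average (mean correlation of their deviations -0.00217 in Bio-EZH1, -0.00558 in SUZ12, 0.0056 in H3K27me3 and -0.000974 in HA-EZH1). Single pairs ranged most widely in SUZ12, from -0.259 to 0.197. Whether the numbers pair libraries across profiles was not tested. With a replicate block 2 Bio-EZH1 members (Dll1 and Dll3) and 1 H3K27me3 member (Hey1) changed from 16 h to 24 h, and the counts of genes stayed within 1.5 times. Depth is unknown, so a missing peak is not a measured absence.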
